A study of Mus musculus with 6 samples.

Results

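The IL-6 family cytokines and gp130 signalling genes were examined as 8 genes, the ligands Il6, Lif, Osm and Il11, the receptor chains Il6ra and Il6st, the transcription factor Stat3 and the inhibitor Socs3. They were found by symbol among the 41079 genes of the count and FPKM tables, the latter holding fragment counts scaled for gene length and library depth. All 8 passed the filter on low counts, which kept 14618 genes in all. The group was chosen by measured values, after the same comparison had shown higher Il6 beside lower values of other inflammatory genes. Its differences between the conditions are therefore given as a description. Where calls of its genes are given, they come from the fit of all genes and are not read as a test of the group.

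RNA came from cultured microglia of C57Bl/6N mice, whose brains were taken at an age of 1 to 3 days. Microglia were shaken off mixed glial flasks that had been fed with L-929 conditioned medium, and cells of several brains shared a flask. By the published methods, the cells spent weeks in these flasks, in serum-containing medium, before they were harvested. The 3 control libraries came from serum-free DMEM/F12. The 3 optimized libraries came from the same medium with human TGF-β1, human IL-34 and human CX3CL1 at 100 ng/mL each. The published methods add cholesterol, insulin-transferrin-selenium and collagen IV coating to this condition. The labels name the cytokines only. No IL-6 family cytokine is among the named supplements, no library tests a supplement alone, and all cells had first adhered in serum-containing medium. The paper describes 3 biological replicates per condition, but the labels do not tie libraries to animals or flasks. Errors and p-values thus measure the spread between these libraries.

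Cytokines of the IL-6 family signal through gp130, the shared receptor chain encoded by Il6st. IL-6 and IL-11 first bind a receptor of their own, Il6ra or Il11ra1, and then gather gp130, while LIF and OSM bring gp130 together with a second signalling chain, Lifr or Osmr. JAK kinases bound to these chains phosphorylate STAT3, which enters the nucleus and induces target genes. Socs3, one such target, binds gp130 and the JAKs and ends the signal. In the brain, microglia are a source of IL-6 and OSM and carry Il6ra, through which IL-6 can act on the cells that make it.

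Count totals were between 20628148 and 27261839, and 1 count corresponded to between 0.0366 and 0.0484 CPM (counts scaled to a common depth with TMM factors). Of 7 microglia markers in the table, 5 rose and 2 fell (edgeR, threshold of 0.05 on adjusted p), and their sum was 5879 to 5979 CPM in control and 10323 to 12029 CPM in optimized libraries. Markers of other cells were also present. Fibroblast markers summed to 31.8 to 45.7 CPM in control libraries and to 44.3, 28.6 and 146.6 CPM in optimized libraries 1 to 3. Astrocyte markers summed to 34.8 to 37.4 CPM in control and 23.5 to 27.0 CPM in optimized libraries. Of 7 tested, 1 was lower, Aldh1l1, with means of 16.5 and 4.64 CPM. Markers of border macrophages, mostly Mrc1, summed to 313.4 to 358.5 CPM in control and 75.1 to 86.8 CPM in optimized libraries. Of 2 tested, 1 was higher (F13a1) and 1 lower (Mrc1). Sums were higher in all optimized libraries for oligodendrocyte precursors (31.0 to 42.9 against 438.6 to 622.9 CPM, mostly Cspg4) and endothelial cells (81.5 to 96.8 against 273.8 to 352.1 CPM, mostly Flt1), each with 1 marker higher. They were also higher for oligodendrocytes (135.0 to 151.2 against 164.1 to 201.5 CPM), neurons (3.07 to 4.72 against 5.30 to 6.34 CPM) and neutrophils (at most 0.220 against 1.42 to 3.07 CPM), again with 1 marker higher each. Mural cell markers stayed at or below 3.13 CPM and T cell markers at or below 0.122 CPM. S100a9, Ly6g and Mpo of neutrophils and Cd3e and Cd3g of T cells had no count in any library. The part of other cells in the values below was not tested. In bulk RNA, fewer cells of a type and less RNA per cell cannot be told apart.

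DNA before the RefSeq start of 3 of these genes is shown because it carries letters recognised by factors of this pathway or by known activators of Il6. The sequences are RefSeq promoter windows of GRCm38.p6, 250 bases before to 50 after the start, placed on GRCm39 by exact match and read 5′ to 3′ on the strand of the gene. Matches to the motifs searched are in capitals. They are AP-1 (TGANTCA), the core of the CRE (TGACGT), C/EBP (TTGCNNAA), NF-κB, STAT (TTCNNNGAA) and SMAD (GGCGCC), each on either strand. The stretches shown are, on GRCm39, chr5:30217862-30218111 (plus strand) for Il6, chr11:4207318-4207417 (plus strand) for Lif and chr11:117860327-117860356 (minus strand) for Socs3.
Il6: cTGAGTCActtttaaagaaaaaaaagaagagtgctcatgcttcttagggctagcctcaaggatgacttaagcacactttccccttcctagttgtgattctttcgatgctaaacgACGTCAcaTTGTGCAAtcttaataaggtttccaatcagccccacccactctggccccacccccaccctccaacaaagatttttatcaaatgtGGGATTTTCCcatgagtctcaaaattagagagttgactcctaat
Lif: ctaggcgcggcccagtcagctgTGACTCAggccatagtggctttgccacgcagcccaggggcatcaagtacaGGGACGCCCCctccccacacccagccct
Socs3: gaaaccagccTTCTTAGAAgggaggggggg

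The Il6 window held AP-1, CRE core, C/EBP and NF-κB matches, which began 249, 136, 128 and 44 bases before the start. Lif had AP-1 and NF-κB matches 228 and 178 bases before its start. Socs3 had the STAT match 154 bases before its RefSeq start, and a SMAD match 61 bases before it. All these distances are from the RefSeq start, which for Il6 is also the outermost GENCODE start given below and for Lif lies 11 bases inside it. For Socs3 the RefSeq start, at 117860192, lies 706 bases inside the outermost GENCODE start, at 117860898. The Socs3 stretch shown is thus inside the GENCODE gene, beginning 542 bases downstream of that start, and overlaps an exon of another Socs3 transcript. Over 32851 windows of the same length, 7.81% held AP-1, 7.51% the CRE core, 10.8% C/EBP, 8.46% NF-κB, 8.3% STAT and 11.9% SMAD. RefSeq windows matched 7 of the 8 genes, all but Osm. Of 2 Il11 windows 1 had an AP-1 match, 98 bases before the start, and the windows of Il6ra, Il6st and Stat3 had no match to these letters. The matches overlap in none of these windows, and a match describes letters only.

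All 4 ligands were higher under the optimized conditions, without overlap between the libraries of the conditions. The 2 receptor chains were lower, also without overlap. Stat3 was slightly higher and did not overlap, and Socs3 overlapped. In CPM, libraries thus did not overlap for 7 of the 8 genes, against 43.9% of the 14618 genes tested. With edgeR's quasi-likelihood test and a threshold of 0.05 on adjusted p, 4 of the 8 were higher and 2 lower, where 14.7% of all genes tested were higher and 15.2% lower (29.8% in all). Stat3 was no longer past the threshold without control library 1, 2 or 3 or optimized library 3, with library size alone, or in any of the 3 limma fits on FPKM, nor was Il6st without control library 1 or 2, which left 4 of the 8 genes called without control library 1 or 2. Because this contrast chose the group, nothing is read from these counts.

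**Figure D1:**
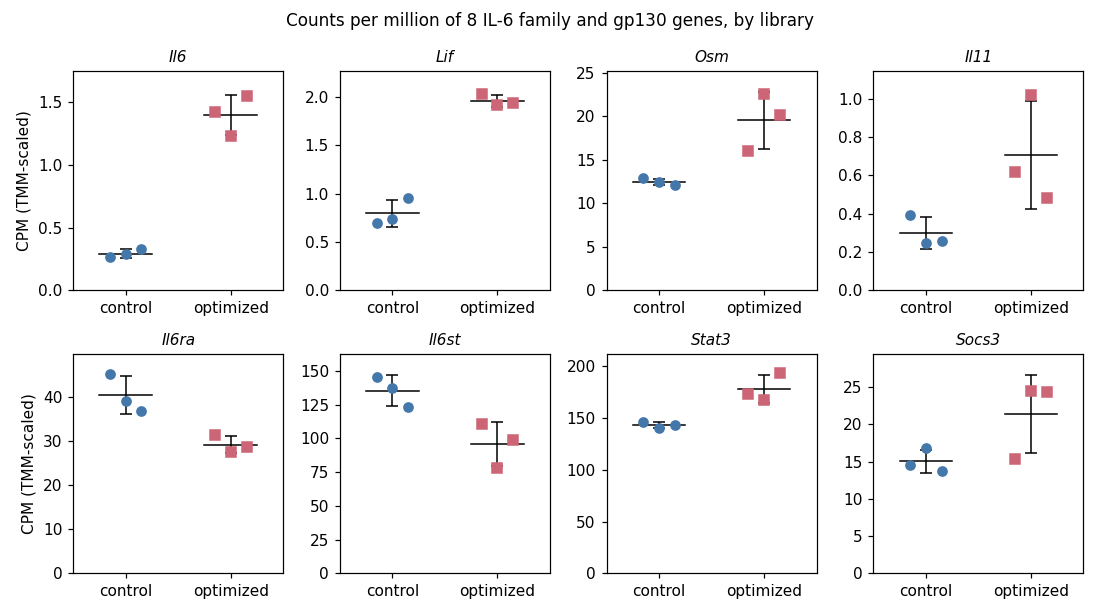
CPM after TMM scaling of the 8 genes in each of the 3 control (circles) and 3 optimized (squares) libraries, with the mean and SD in black and an axis of its own for each gene. Il6 lies between 0.262 and 0.329 CPM in control and between 1.23 and 1.55 CPM in optimized libraries, while optimized library 1 of Socs3, at 15.3 CPM, sits among the controls.

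Il6 encodes interleukin-6 and lies on chromosome 5 of GRCm39 from 30218112 to 30224979. It had 6, 7 and 9 counts in control libraries 1 to 3 and 30, 29 and 32 counts in optimized libraries 1 to 3. In CPM these were 0.262, 0.286 and 0.329 in control and 1.42, 1.23 and 1.55 in optimized libraries. Every optimized library was above every control library, and the 3 optimized values lay close together. The means were 0.292 ± 0.034 and 1.40 ± 0.16 CPM (SD, n = 3 each). As fitted by edgeR, the log2 fold change was 2.23 ± 0.34 (SE), which is 4.69-fold. Counting error alone placed the lowest optimized library between 19.4 and 41.6 counts and the highest control library between 4.12 and 17.1 counts. These are exact Poisson 95% intervals on counts not scaled for depth. Because higher Il6 chose the group, they describe counting error only and do not test the difference. Il6 remained rare in both conditions. Its mean FPKM was above that of 9.3% of the genes tested in control and of 25% in optimized cultures. Where optimized libraries 1 to 3 had 1.42, 1.23 and 1.55 CPM of Il6, their fibroblast marker sums were 44.3, 28.6 and 146.6 CPM.

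Lif encodes leukemia inhibitory factor and lies on chromosome 11 from 4207557 to 4222514. It had 16, 18 and 26 counts in the controls against 43, 45 and 40 under the optimized conditions, which were 0.70, 0.734 and 0.952 against 2.04, 1.92 and 1.93 CPM. The optimized libraries were all higher and differed little among themselves. Counting error alone placed control library 3 between 17 and 38.1 counts and optimized library 3 between 28.6 and 54.5 counts, and these intervals overlapped. On the log2 scale the difference in Lif was 1.29 ± 0.28 (SE).

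Osm, which encodes oncostatin M, is the neighbour of Lif on the same strand of chromosome 11, from 4186420 to 4191026, with a gap of 16.5 kb between the genes. It was counted far more often than Il6 or Lif, with 294, 306 and 332 counts in the controls against 338, 529 and 416 under the optimized conditions. In CPM, control libraries had 12.9, 12.5 and 12.2, and optimized libraries 16.0, 22.5 and 20.1. Optimized library 1 was the closest to the controls. On the log2 scale the difference in Osm was 0.65 ± 0.13 (SE), against 1.29 for its neighbour Lif.

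Il11, which encodes interleukin-11, lies on chromosome 7 from 4775372 to 4785858. Its counts were 9, 6 and 7 in control and 13, 24 and 10 in optimized libraries, or 0.393, 0.245 and 0.256 against 0.616, 1.02 and 0.484 CPM. Optimized library 2 was the highest, and the gap between optimized library 3 and control library 1 was small. The log2 fold change of Il11 was 1.25 ± 0.45 (SE), and 0.87 without optimized library 2. Counting error of optimized library 3 alone ran from 4.8 to 18.4 counts and covered all control counts.

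Per length, Osm made up most of the RNA of the 4 ligands in both conditions. Its share of their summed FPKM was 92.8% ± 0.66 in control and 84.6% ± 2.31 in optimized cultures (SD, n = 3 each). The share of Il6 was 3.55% ± 0.49 and 10.1% ± 2.13 (SD, n = 3 each). In each control library the share of Il6 lay between 3.1% and 4.07%, and in each optimized library between 7.76% and 11.9%. The FPKM of Osm was 26.5 ± 3.72 times that of Il6 in control and 8.68 ± 2.23 times in optimized libraries (SD, n = 3 each).

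Il6ra encodes the receptor that binds IL-6, on chromosome 3 from 89771366 to 89820719. Control libraries had 1034, 959 and 1009 counts and optimized libraries 661, 649 and 594 counts. In CPM, these were 45.2, 39.1 and 36.9 against 31.3, 27.6 and 28.7. All optimized libraries were below all control libraries. For Il6ra the log2 fold change was -0.47 ± 0.10 (SE).

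Il6st encodes gp130, on chromosome 13 from 112600604 to 112646620. It had 3334, 3371 and 3360 counts in the controls against 2334, 1827 and 2047 under the optimized conditions, which were 145.8, 137.5 and 123.0 CPM against 110.5, 77.8 and 99.0 CPM. The lowest value was that of optimized library 2, and the libraries did not overlap. The log2 fold change of Il6st was -0.50 ± 0.13 (SE), and -0.38 without optimized library 2. The receptor chains were lower to a like extent. The FPKM of Il6st was 1.98 ± 0.087 times that of Il6ra in control and 1.93 ± 0.23 times in optimized libraries (SD, n = 3 each), with overlapping libraries.

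Stat3 encodes the main transcription factor of the pathway, on chromosome 11 from 100775924 to 100830450. Its counts were 3342, 3456 and 3916 in control and 3653, 3940 and 4003 in optimized libraries, or 146.1, 141.0 and 143.3 against 173.0, 167.7 and 193.6 CPM. In CPM the optimized libraries were all higher, whereas in FPKM they ran from 32.1 to 39.4 and overlapped the control range of 30.3 to 32.9. The log2 fold change of Stat3 was 0.31 ± 0.08 (SE), and 0.18, no longer past the threshold, when counts were scaled by library size alone. Exons of Stat3 overlap those of Stat5a and Gm46295 on the other strand, which had 0.0723 and 0.0575 times its mean count. It is the only gene of the 8 with such an overlap with another gene of the count table.

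Socs3 encodes the inhibitor of gp130 signalling, on chromosome 11 from 117856905 to 117860898. Control libraries had 334, 411 and 375 counts and optimized libraries 323, 574 and 503 counts, which were 14.6, 16.8 and 13.7 CPM against 15.3, 24.4 and 24.3 CPM. Optimized libraries 2 and 3 were above the controls, and optimized library 1 was within their range. For Socs3 the log2 fold change was 0.51 ± 0.18 (SE), and 0.70 without optimized library 1.

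The order of the 8 genes by FPKM was similar in both conditions. In control cultures Stat3 came first with 31.7 ± 1.28 FPKM, followed by Il6st with 24.1 ± 2.83, Il6ra with 12.2 ± 1.61, Osm with 6.82 ± 0.42, Socs3 with 5.6 ± 0.75, Il6 with 0.260 ± 0.022, Lif with 0.144 ± 0.019 and Il11 with 0.126 ± 0.037 FPKM (SD, n = 3 each). The libraries of Osm and Socs3 overlapped in level, as did those of Lif and Il11, and the other neighbours in this order did not. In optimized cultures Osm, with 9.65 ± 1.28 FPKM, came before Il6ra, with 8.00 ± 0.82 FPKM (SD, n = 3 each), and the libraries of Osm overlapped those of Il6ra, those of Il6ra overlapped those of Socs3, and those of Lif overlapped those of Il11. Stat3 and Il6st, with 35.8 ± 3.65 and 15.5 ± 3.29 FPKM (SD, n = 3 each), stayed ahead of these without overlap.

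**Figure D2:**
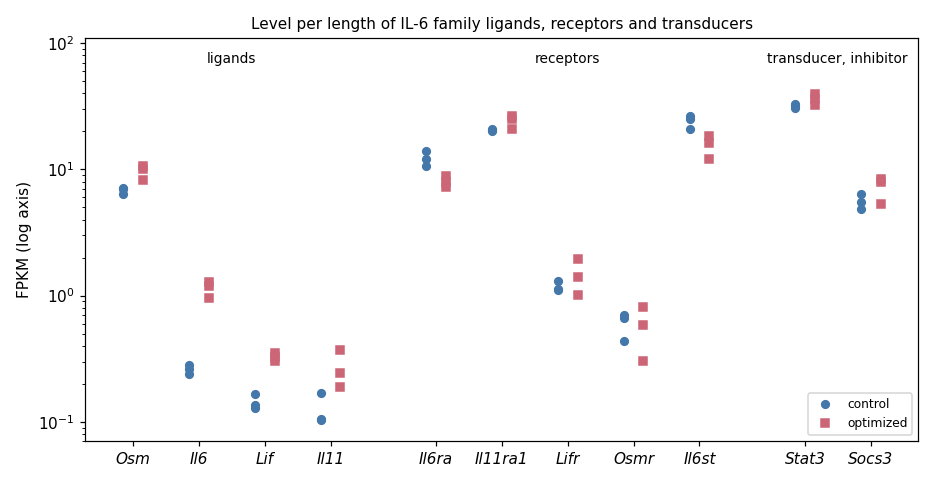
FPKM on a log axis of the 4 ligands, of 5 receptor chains and of Stat3 and Socs3 in the 3 control (circles) and 3 optimized (squares) libraries. Osm is the ligand with the highest level in every library, and among the receptor chains Lifr and Osmr lie far below Il6ra, Il11ra1 and Il6st.

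Among the other receptors of the family, the level of the second chains was low. Osmr, the chain that OSM uses beside gp130, had 0.599 ± 0.14 FPKM in control and 0.566 ± 0.26 FPKM in optimized cultures (SD, n = 3 each), with overlapping libraries. Its log2 fold change was 0.05 ± 0.32 (SE). Lifr, the chain for LIF, had 1.18 ± 0.10 and 1.46 ± 0.47 FPKM (SD, n = 3 each). On the log2 scale Lifr differed by 0.43 ± 0.19 (SE), with an adjusted p of 0.12 by edgeR's quasi-likelihood test. Il11ra1, the receptor for IL-11, was well counted, with 20.5 ± 0.45 and 24.0 ± 2.81 FPKM (SD, n = 3 each). It had a log2 fold change of 0.37 ± 0.12 (SE) and an adjusted p-value of 0.039 by edgeR, which held in 6 of 15 other settings, including 1 of the 6 with a library left out. Il27ra, the partner of gp130 for IL-27, fell by 1.38 on the log2 scale (SE 0.29, adjusted p = 0.0054 by edgeR), with 58, 54 and 65 counts in the controls against 16, 17 and 26 under the optimized conditions. Cntfr and Il31ra had too few counts to test. Of the 4 receptors tested, 1 was thus higher and 1 lower, where 29.8% of all genes tested were called, with a median log2 fold change of 0.21, against 0.0079 over all genes tested.

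The other ligands went both ways, with 1 higher, 2 lower and 1 not called among the 4 tested, where 14.7% of all genes tested were higher and 15.2% lower, and a median log2 fold change of -0.09. Both subunits of IL-27 fell. Ebi3 had 948, 1040 and 1275 counts in the controls against 354, 625 and 455 under the optimized conditions, and fell by 1.00 on the log2 scale (SE 0.15, adjusted p = 0.00070 by edgeR). Il27 had 93, 116 and 154 against 62, 71 and 62 counts, and fell by 0.69 (SE 0.19, adjusted p = 0.019 by edgeR), a call that was lost without control library 2, control library 3 or optimized library 3. Ebi3, Il27 and Il27ra all share exon bases with genes on the other strand, which had 0.696, 24.9 and 0.195 times their mean counts, and the strand setting of the counting is not given in the sources used here. Clcf1, which encodes a ligand of the CNTF receptor, rose by 0.73 (SE 0.18, adjusted p = 0.012 by edgeR), with 96, 117 and 107 against 173, 133 and 157 counts. It shares 311 exon bases on the same strand with Gm45928, which had 4.52 times its mean count, and its call was lost in 5 of 15 settings, including that without control library 3. Cntf, which encodes ciliary neurotrophic factor, had 22, 21 and 6 counts in the controls against 17, 27 and 19 under the optimized conditions. It shares 847 exon bases on the same strand with Gm44505, which had 64.6 times its mean count. Without control library 3, 1 of 5 ligands tested was called. The other 4 listed ligands had too few counts to test, with Ctf2 and Il31 at 0 counts in every library.

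Membrane proteases release the IL-6 receptor from the cell surface, in the mouse with a large part played by Adam10 and Adam17. Adam10 rose by 0.94 on the log2 scale (SE 0.09, adjusted p = 2.5e-05 by edgeR), from 30.8 ± 2.56 to 53.7 ± 5.30 FPKM (SD, n = 3 each). Rhbdf2, which encodes the partner iRhom2 that brings ADAM17 to the surface, rose by 0.44 (SE 0.08, adjusted p = 0.0022 by edgeR). Adam17 had a log2 fold change of -0.17 ± 0.08 (SE) and Rhbdf1 one of 0.03 (SE 0.12), and neither passed the test. Thus 2 of these 4 genes were higher, against 14.7% of all genes tested, with a median of 0.24.

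Of the kinases and transducers that act beside STAT3, 4 of 5 were lower, against 15.2% of all genes tested, with a median log2 fold change of -0.30. Tyk2, a JAK family kinase, fell by 0.58 (SE 0.10, adjusted p = 0.0016 by edgeR), a call that held in all 15 other settings. Jak1, the main kinase of gp130, fell by 0.26 (SE 0.08, adjusted p = 0.033 by edgeR), and Ptpn11, which encodes the phosphatase SHP2, by 0.30 (SE 0.10, adjusted p = 0.040 by edgeR). Jak2, at 0.19 (SE 0.10), was the highest and did not pass the test. The calls of Jak1 and Ptpn11 were lost on leaving out each of 5 libraries, all but optimized library 1. In the list, 1 gene was called without control library 2, and 2 genes were called without control library 1, control library 3, optimized library 2 or optimized library 3.

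Among 9 negative regulators, 2 were higher, 1 was lower and 6 did not pass the test, where 29.8% of all genes tested were called, with a median log2 fold change of 0.06. Socs2, whose protein acts mainly on growth hormone receptor signalling, had 46, 59 and 49 counts in the controls against 140, 176 and 177 under the optimized conditions, and rose by 1.87 (SE 0.19, adjusted p = 4.5e-05 by edgeR). Socs6, another member of this family of adaptors for ubiquitin ligases, rose by 0.85 (SE 0.08, adjusted p = 3.2e-05 by edgeR). Ptpn6, which encodes the phosphatase SHP1, fell by 0.48 (SE 0.10, adjusted p = 0.0045 by edgeR). Socs1, the closest relative of Socs3 and an inhibitor of JAKs, had 28, 55 and 41 against 17, 29 and 20 counts, and a log2 fold change of -0.72 ± 0.33 (SE, adjusted p = 0.14 by edgeR). Pias3, the inhibitor of STAT3, had a log2 fold change of -0.05 ± 0.09 (SE).

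Known target genes of STAT3 changed in both directions. Of 17 tested, 5 were higher, 10 lower and 2 not called, where 14.7% of all genes tested were higher and 15.2% lower, with a median log2 fold change of -0.50. Il1rn, which encodes the IL-1 receptor antagonist, was the lowest, with 740, 661 and 904 counts in the controls against 162, 186 and 161 under the optimized conditions, and fell by 1.98 (SE 0.12, adjusted p = 1.3e-06 by edgeR). The kinase gene Pim1 fell by 1.20, the survival gene Mcl1 by 1.11 and the NF-κB cofactor Bcl3 by 1.04, each with an SE of 0.08 to 0.12. Birc5 and Ccnd1, which also belong to the cell cycle, fell by 1.33 and 1.05. Ccnd1 and Pim1 share exon bases with genes on the other strand, which had 0.746 and 0.246 times their mean counts. The highest was Timp1, an inhibitor of metalloproteinases, with 68, 70 and 89 counts in the controls against 101, 187 and 285 under the optimized conditions, a log2 fold change of 1.54 ± 0.33 (SE, adjusted p = 0.0058 by edgeR). Its highest library was also that with the highest fibroblast sum, and its log2 fold change was 1.07 without it. Hif1a rose by 1.04, Il4ra by 0.95, Vegfa by 0.94 and Junb by 0.53. Junb shares exon bases with Prdx2 on the other strand, which had 1.04 times its mean count, and its call was lost without control library 2. Socs3, a target itself, had a log2 fold change of 0.51.

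IL-10 also acts through STAT3 but with receptors of its own. Il10 had 9, 12 and 12 counts in the controls against 0, 1 and 0 under the optimized conditions, without overlap, and was too rare for the main test. Il10ra, its specific receptor, fell by 0.48 (SE 0.08, adjusted p = 0.00085 by edgeR), and Il10rb had a log2 fold change of -0.20 ± 0.10 (SE, adjusted p = 0.18 by edgeR). Thus, of the IL-10 genes tested, 1 of 2 was lower, against 15.2% of all genes tested, with a median of -0.34. Where a library was left out, 2 IL-10 genes were called without control library 1, optimized library 1 or optimized library 3.

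Genes of factors known to drive Il6, among them AP-1, NF-κB and C/EBP proteins, were measured in the same libraries. Of 9 regulators of Il6 transcription, 5 were lower and 4 not called, against 15.2% of all genes tested that were lower, with a median log2 fold change of -0.31. Fos and Jun, subunits of AP-1, fell by 0.97 (SE 0.10, adjusted p = 5.0e-05 by edgeR) and by 0.39 (SE 0.09, adjusted p = 0.0086 by edgeR). The NF-κB subunit genes Nfkb1 and Rela fell by 0.31 and 0.34, both with an SE of up to 0.09. Cebpd fell by 0.50 (SE 0.14), while Cebpb, Rel, Nfkbiz and Atf3 did not pass the test, with log2 fold changes from -0.24 to -0.04. The calls of Rela and Cebpd were lost without control library 2, control library 3 or optimized library 3, and that of Rela also without control library 1. That of Nfkb1 was lost without control library 1 or optimized library 3, so that 2 genes were called without optimized library 3 and 3 without any 1 control library. Exons of Cebpb and Cebpd overlap genes on the other strand that had 2.08 and 1.05 times their mean counts. mRNA amounts do not show the activity of these factors.

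The Il6 mRNA is short-lived and is bound by proteins that degrade or protect it. Of 8 such regulators, 2 were lower and 6 not called, against 15.2% of all genes tested that were lower, with a median log2 fold change of -0.03. Arid5a, whose protein protects the Il6 mRNA, fell by 0.95 (SE 0.19, adjusted p = 0.0042 by edgeR), with 216, 307 and 231 counts in the controls against 89, 125 and 127 under the optimized conditions. Zfp36, which encodes the decay factor tristetraprolin, fell by 0.31 (SE 0.09, adjusted p = 0.023 by edgeR), a call that was lost without control library 1, 2 or 3 or optimized library 3. Zc3h12a, which encodes the nuclease Regnase-1, was the highest at 0.27 (SE 0.10) with an adjusted p-value of 0.072 by edgeR.

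Il6 stood apart in direction from most inflammatory effector genes, which is how the group was noticed, so these values are given as a description. Of 16 listed effectors, 13 were tested, 10 were lower and 3 not called, against 15.2% of all genes tested that were lower, and the median log2 fold change was -1.94. Il1b, which encodes interleukin-1β, had 460, 609 and 635 counts in the controls against 52, 47 and 48 under the optimized conditions, a log2 fold change of -3.33 ± 0.15 (SE). Cxcl2, a chemokine that attracts neutrophils, had 486, 522 and 549 against 30, 66 and 51 counts, and Nos2, which encodes inducible nitric oxide synthase, 19, 17 and 30 against 0, 3 and 3 counts. Il18 had a log2 fold change of -0.62. Il1a, Ptgs2 and Cxcl1, at -0.12, 0.30 and 0.32, had overlapping libraries and were the 3 effectors not called. Without optimized library 2, Ptgs2 was called higher. Il12a and Il12b were at 0 counts in every library, and Il23a had at most 4 counts in a library.

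**Figure D3:**
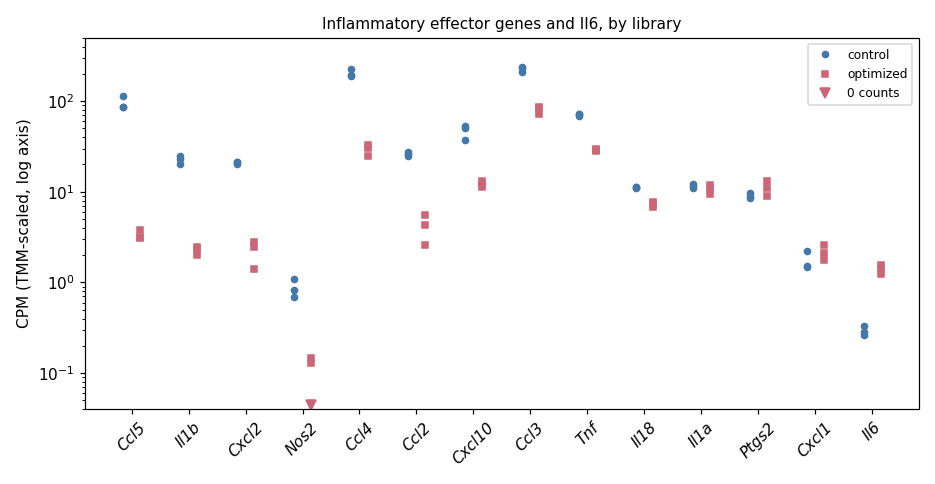
CPM on a log axis of the 13 tested inflammatory effectors, ordered by log2 fold change, and of Il6 at the right, in the 3 control (circles) and 3 optimized (squares) libraries. A triangle at the lower edge marks optimized library 1 of Nos2 with 0 counts. From Ccl5 to Il18 all optimized libraries lie below the controls, while for Il6 all lie above.

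The 3 genes whose pattern over the 6 libraries was most like that of Il6 were P2rx6, Bhlhe40 and Gatm, among 12638 candidates. The measure was the root mean square difference of log2 CPM centred on the mean of each gene, which was 0.10, 0.11 and 0.11. P2rx6, which encodes a subunit of ATP-gated channels, was as rare as Il6, with 6, 7 and 11 counts in the controls against 32, 31 and 30 under the optimized conditions. Bhlhe40, which encodes a transcriptional repressor, had 665, 653 and 911 against 2543, 2670 and 2374 counts, and Gatm, an enzyme gene of creatine synthesis, 1060, 1272 and 1231 against 4141, 4119 and 4328 counts. These genes were chosen for this pattern, so it is a description.

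**Figure D4:**
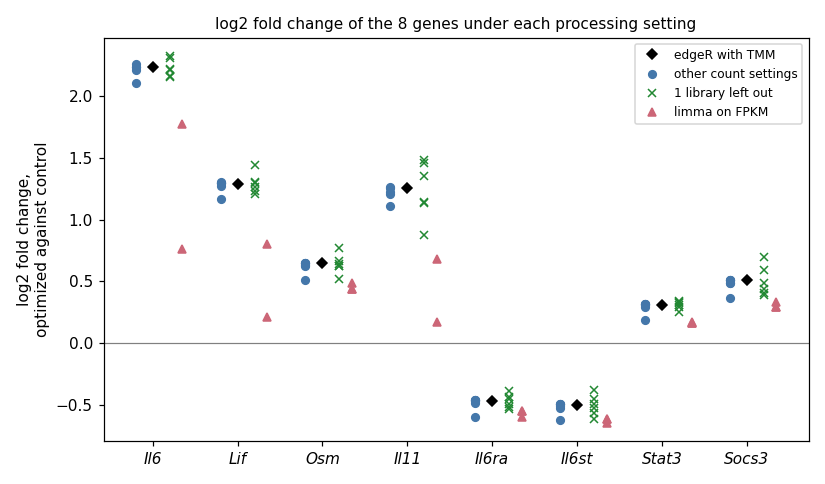
Log2 fold change of the 8 genes by edgeR with TMM scaling (diamonds), under other settings on the counts (circles), with 1 library left out (crosses) and by limma on FPKM (triangles). All 8 keep their sign in every setting drawn, while the values of Il6, Lif and Il11 shrink with limma on log2(FPKM + 1), to 0.76, 0.21 and 0.17.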

How the data were processed

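According to the published methods, the authors ran Galaxy, with HISAT2 for alignment to mm39 and featureCounts for the gene counts. Versions, annotation and strand setting are not given in the sources used here. The deposited values were raw counts and FPKM for the same genes and libraries. Each column was matched to its sample by the column name in the labels.

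The main test was that of edgeR 4.0.16 in R 4.3.3 on the counts (filterByExpr, TMM factors, glmQLFit and glmQLFTest with no further terms). P-values were adjusted over all genes tested with the Benjamini-Hochberg method (threshold 0.05), and the standard error was the log2 fold change divided by the square root of F. The genes of the group, the pathway lists and the marker lists were chosen with earlier results of these data known. Genes are named where they belong to the group, are the highest or lowest of a list, have a role described, or are the 3 most like Il6, which needed a mean of at least 10 counts and a symbol other than that of a predicted gene. Log2 CPM for that measure used a prior count of 2.

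Other settings were DESeq2 1.42.0, scaling by relative log expression or by library size alone, dropping the filter or asking for 10 counts throughout, blocking on replicate number, leaving out each library, and limma 3.58.1 on FPKM with a pseudocount of 1 (with and without a minimum mean FPKM of 1) or of 0.1. All fits were tested on simulated data. The limma values are differences of log2(value + pseudocount), a scale that understates changes of rare genes. Libraries of a condition differed by more than sampling noise (chi-square of 10.7 to 78.8 per degree of freedom). Gene positions came from GENCODE M39 (GRCm39), which held 35087 of the 41079 symbols. Exons of 29 of 82 pathway list genes overlap those of another gene of the count table. Protein sequences were not used here, and some list genes are counted but not reported here by name.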

Additional observations from a re-analysis of the deposited data

How the results depend on the processing

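Each of the 8 genes kept its sign under every alternative that could test it. Over the settings on counts the log2 fold change ran from 2.11 to 2.32 for Il6, 1.17 to 1.44 for Lif, 0.51 to 0.77 for Osm, 0.87 to 1.48 for Il11, -0.60 to -0.38 for Il6ra, -0.62 to -0.38 for Il6st, 0.18 to 0.34 for Stat3 and 0.36 to 0.70 for Socs3. With limma on log2(FPKM + 1), Osm was 0.44 and Stat3 0.17, the latter no longer past the threshold. At least 10 counts in every library left Il6 and Il11 out, and 3 of the 8 genes (Il6, Lif and Il11) fell under a mean FPKM of at least 1, where 3 of 5 were past the threshold. With libraries left out, between 4 and 7 of the 8 genes were past it, and between 3249 and 5234 of all genes. Because this contrast chose the group, calls of its genes are a description here too.

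Library size alone moved the median of all genes from 0.0079 to -0.12, and 32.3% of the genes called were then higher, against 49.1% with TMM. With limma this share was 30.5% with a pseudocount of 1, 32.8% with 0.1 and 28.8% when a mean FPKM of at least 1 was also required. Of the other receptors, 1 was called with library size alone, and with limma at either pseudocount. With limma and a mean FPKM of at least 1, which leaves 2 of them, 0 were called, also 0 at an unadjusted p under 0.05, against 2 called by edgeR and by DESeq2. Of the receptor shedding genes, 1 was called with limma on log2(FPKM + 0.1). Of the IL-10 genes, 2 were called with library size alone, with no filter, with limma on log2(FPKM + 1) and for a mean FPKM of at least 1. The causes were not tested.

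With libraries left out, calls numbered 1 to 4 for the other ligands, 1 to 2 for the other receptors, 2 for receptor shedding, 1 to 4 for kinases and transducers, 3 for negative regulators, 12 to 16 for STAT3 target genes, 1 to 2 for the IL-10 genes, 2 to 6 for the regulators of Il6 transcription, 1 to 2 for those of its mRNA and 10 to 11 for the inflammatory effectors.

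The replicate numbers shared by the conditions were not shown to pair the libraries. Deviations from the condition means correlated at 0.27, -0.01 and 0.19 for numbers 1 to 3. Optimized libraries 1 and 3 correlated best with the control library of their own number, but optimized library 2 did so with control library 3. With the replicate block, 4924 genes were called in place of 4360, and 7 of the 8 genes in place of 6, with Socs3 added. Socs3 was also past the threshold with DESeq2, with no filter and without optimized library 1, and Il11 with limma on log2(FPKM + 0.1).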
